A study of Mus musculus with 2 samples.

Results

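The proteasome is the protease that degrades most ubiquitin-tagged proteins, and its constitutive subunits are described here in Lgr5-high and Lgr5-low cells of the mouse pyloric stomach. Members were the array probes whose gene name begins with Psma to Psmg and a number, without Psmb8, Psmb9 and Psmb10, the inducible subunits of the immunoproteasome. This pattern took 73 of 41174 gene probes and 46 gene names. One of these names, Psmc3ip, belongs to a recombination factor that is not a proteasome subunit, so 45 genes remained. Of the 45, 40 were measured, among 7830 measured genes on the arrays.

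All mice carried the Lgr5-EGFP-ires-CreERT2 knock-in allele, so that green fluorescent protein (GFP) was made where the Lgr5 gene is active. GFPhigh cells carried much of this protein and GFPlow cells carried little, so both populations share the knock-in allele and neither is a sample without GFP. The pyloric regions of 20 stomachs from 20 mice were pooled before sorting, which left 1 RNA sample per population. The labels give no age, sex or strain background. Both RNAs were hybridized together on 2 arrays with the dyes exchanged: GFPhigh RNA carried Cy3 on array 1 and Cy5 on array 2.

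The arrays are therefore repeats of the same RNA, and no difference between mice can be tested. Ratios are given as log2 of GFPhigh over GFPlow after normalization within the array, and ± gives the SD of n = 2 arrays, which covers dye and array error only. A gene was counted as higher or lower when its ratio passed 1.5-fold in the same direction on both arrays. In pools of sorted cells, fewer cells of a type and less RNA per cell cannot be told apart. Lgr5, on whose reporter the cells were sorted, had ratios of 2.33 and 2.24 (mean 2.28 ± 0.06).

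The constitutive proteasome is a barrel with a lid. The barrel, or core particle, stacks rings of alpha subunits, which form the gate, around rings of beta subunits, of which Psmb5, Psmb6 and Psmb7 carry the chymotrypsin-like, caspase-like and trypsin-like cutting sites. The regulatory cap has a ring of ATPases, encoded by the Psmc genes, that unfold substrates, and non-ATPase subunits, encoded by Psmd genes, that bind ubiquitin and remove it. Other caps, the activators encoded by the Psme genes, open the gate without ATPases, and the Psmg chaperones help to build the core. In cells exposed to interferon, Psmb8, Psmb9 and Psmb10 take the places of Psmb5, Psmb6 and Psmb7. The transcription factors Nfe2l1 and Nfe2l2 are known to drive proteasome genes through antioxidant response elements.

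Array probes for Psmd14, for Psmb5 and for its inducible counterpart Psmb8 are printed because the only member past 1.5-fold and the clearest contrast between constitutive and inducible subunits rest on them. Capitals in the Psmb5 probe and the second Psmb8 probe mark bases that are identical when the probes are laid over each other without gaps, 31 of 50 overlapping bases (62%).
Psmd14 probe, chr2:61635507-61638090 (mm9): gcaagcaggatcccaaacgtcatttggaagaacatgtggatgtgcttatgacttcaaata
Psmb5 probe, chr14:55233161-55233220 (mm9): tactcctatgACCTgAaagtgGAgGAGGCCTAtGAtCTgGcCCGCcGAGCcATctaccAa
Psmb8 probe used, chr17:34337828-34338152 (mm9): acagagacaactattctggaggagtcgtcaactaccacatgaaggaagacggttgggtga
Psmb8 second probe, chr17:34337771-34337830 (mm9): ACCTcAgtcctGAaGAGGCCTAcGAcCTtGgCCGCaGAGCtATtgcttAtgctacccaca
The Psmd14 probe and the first Psmb8 probe cross an intron, since their 60 bases span 2584 and 325 bases of the genome. In all, 20 of the 49 kept member probes cross an intron.

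The upstream stretches of Psmb5 and Psmb8 are printed for the same pair, as the 120 bases before the RefSeq start site in the GRCm38.p6 promoter table. Capitals mark the only match of a scanned motif in each stretch, an antioxidant response element core in Psmb5 (the gene lies on the minus strand) and a gamma-activated site, the binding site of interferon-activated STAT factors, in Psmb8 (plus strand).
Psmb5 upstream, chr14:54617996-54618115: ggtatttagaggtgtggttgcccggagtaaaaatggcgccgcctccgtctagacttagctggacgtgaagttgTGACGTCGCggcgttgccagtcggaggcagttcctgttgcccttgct
Psmb8 upstream, chr17:34198075-34198194: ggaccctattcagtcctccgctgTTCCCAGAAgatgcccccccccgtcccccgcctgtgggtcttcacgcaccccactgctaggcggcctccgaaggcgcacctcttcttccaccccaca
The motifs were searched on both strands in windows of 300 bases, and none of them contains another. The table held 40 windows for 37 of the 45 genes and 32851 windows in all. TGACNNNGC, the antioxidant core, was in 6 member windows (15%, against 12.4% of all windows), those of Psmb5, Psmb6, Psmc6, Psmd12, Psmd9 and Psme4. TTCNNNGAA, the gamma-activated site, was in 2 member windows (5%, against 8.30%), those of Psmd2 and Psmg1. The interferon regulatory factor core GAAANNGAA was in 7 member windows (17.5%, against 8.56%), those of Psmb3, Psmb4, Psmc2, Psmd4, Psmd9, Psme1 and Psmg4. The CCAAT box was in 13 (32.5%, against 37.4%). Of the 3 windows of the immunoproteasome subunits, only that of Psmb8 held a gamma-activated site, and 0 held the interferon regulatory factor core. Such matches describe the letters of these windows and show no binding.

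Almost no constitutive subunit passed 1.5-fold. No member was at least 1.5-fold higher in GFPhigh cells on both arrays, against a background of 5.59% of all genes. One member, Psmd14, was at least 1.5-fold lower, against a background of 7.5%. At 2-fold, 0 members passed in either direction, against 1.76% of genes for higher and 2.69% for lower. There were 26 members (65%) under 1.5-fold on both arrays, against 55% of all genes.

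Within these small differences, more members had mean ratios below 0 than above 0 after normalization within the array. The mean ratio was below 0 for 35 of the 40 measured members, against 4363 of all 7830 genes. Ratios below 0 on both arrays were found for 23 members (57.5%), against 36.6% of all genes, ratios above 0 on both arrays for 4 members, against 28.1% of all genes, and ratios of opposite sign for 13. The median ratio of the members was -0.23 (-0.14 on array 1 and -0.35 on array 2), and that of all genes was -0.06 (-0.03 and -0.09). Mean ratios of the members had an SD of 0.25 between genes, and those of all genes 0.57. Relative to the median of all genes, 33 of the 40 members were lower. These counts are limited by the filter, since a gene dim in GFPhigh cells could enter only through GFPlow cells. In GFPhigh cells 6 of the 40 were well above background on 1 array only. Of the 34 members above background in both populations, 29 had a mean ratio below 0. Of these 34, 19 (55.9%) were below 0 on both arrays, against 28.6% of all genes under that filter.

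Relative to the median of all genes, the median of the members was -0.17 with an SD of 0.10 between the arrays. For single genes the arrays differed by more than this. The difference between the arrays had an SD of 0.54 over the members and 0.57 over all genes. The ratios of the members on array 1 and array 2 had a Pearson correlation of -0.09 (Spearman -0.04, 40 genes), against 0.60 (Spearman 0.47) over 7830 genes. Mean ratios of the members span a narrower range (SD 0.25, against 0.57), which by itself lowers a correlation. The 2 correlations therefore do not show that members were less repeatable than other genes. The points share the same RNA extracts with the dyes exchanged. The order of the members among themselves was thus not repeated between the arrays, as the plot of array 2 against array 1 shows.

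**Figure D1:**
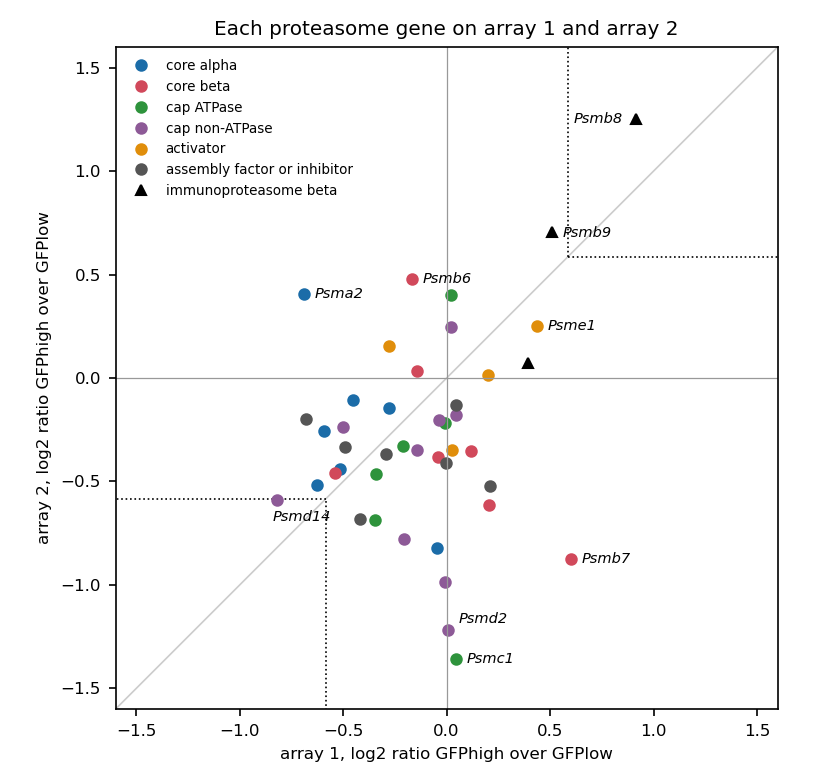
Log2 ratio GFPhigh over GFPlow of each measured proteasome gene on array 1 (horizontal axis) and array 2 (vertical axis), coloured by class, with the 3 immunoproteasome subunits as triangles. Dotted corners mark at least 1.5-fold on both arrays: Psmd14 lies in the lower one and Psmb8 in the upper one, and Psmc1, Psmd2 and Psmb7 lie far from the diagonal because their arrays differ.

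Centring bears on the zero point. The median of all genes was -0.06 after loess normalization, -0.49 when each array was centred on its median and -0.81 when the spike-in probes were set to 0. Under both of these centrings all 40 measured members had lower mean ratios over the 2 arrays than after loess, and no mean was above 0, so that the mean ratios above 0 of Psme1, Psme2, Psmc4, Psmd8 and Psmb6 change sign there. Class medians are for that reason also given relative to the median of all genes. The median of the members was below that of all genes under each of the 12 alternatives as well, with 29 to 36 members below it.

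The alpha subunits of the core had the lowest class median, -0.42, or -0.37 relative to all genes, for 7 measured genes. This place depended on the processing: on array 2 the alpha median (-0.26) was above the beta median (-0.38), and relative to all genes it was -0.11 on that array alone, where the cap ATPases were lowest. The assembly factors were lowest with processed signals, in the deposited value table and with both populations above background. Ratios were below 0 on both arrays for 6 of the 7 alpha genes (85.7%), against 36.6% of all genes, and none passed 1.5-fold on both arrays. Psma1 came closest to the threshold. Its normalized log2 intensity was 10.82 and 10.63 in GFPhigh cells and 11.45 and 11.15 in GFPlow cells, so that both GFPhigh values lay below both GFPlow values. The ratios of Psma1 were -0.63 and -0.52 (mean -0.57 ± 0.08), a 1.49-fold lower level in GFPhigh cells.

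Psma5 followed with ratios of -0.52 and -0.44 (mean -0.48 ± 0.05), below 0 on both arrays with little spread. For Psma7 the mean of -0.43 ± 0.55 rested on array 2, where the ratio was -0.82, while array 1 gave -0.05. At the other end of the class, Psma2 had -0.69 and 0.41 (mean -0.14 ± 0.78), opposite signs on the arrays. Psma6 had -0.28 and -0.14 (mean -0.21 ± 0.09) and Psma4 had -0.45 and -0.11 (mean -0.28 ± 0.24). The remaining alpha subunit, Psma3, had a mean of -0.42. Psma8, the testis-specific alpha subunit, was not measured.

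The beta subunits of the core had a median of -0.14, or -0.08 relative to all genes (7 genes), and none passed 1.5-fold on both arrays. Of the 7, 2 (28.6%) were below 0 on both arrays, against 36.6% of all genes. Psmb2 was the lowest at -0.54 and -0.46 (mean -0.50 ± 0.06), but its signal in GFPhigh cells was well above background on 1 array only. Psmb1 had 0.20 and -0.61 (mean -0.20 ± 0.58), Psmb4 had 0.12 and -0.35 (mean -0.12 ± 0.33) and Psmb3 had -0.15 and 0.03 (mean -0.06 ± 0.13). These 3 genes had opposite signs on the arrays. Psmb11, the thymus-specific beta subunit, was not measured.

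The 3 subunits with cutting sites showed no shared direction. Psmb5, the chymotrypsin-like subunit, had intensities of 10.74 and 10.46 in GFPhigh cells and 10.78 and 10.84 in GFPlow cells, a mean ratio of -0.21 ± 0.24. Psmb6, the caspase-like subunit, had 12.94 and 13.18 in GFPhigh cells and 13.11 and 12.70 in GFPlow cells, with ratios of -0.17 and 0.48 (mean 0.16 ± 0.46). Psmb7, the trypsin-like subunit, had 8.48 and 7.61 in GFPhigh cells and 7.88 and 8.49 in GFPlow cells, with ratios of 0.60 and -0.87 (mean -0.14 ± 1.04). The populations overlapped for Psmb6 and Psmb7, and neither ratio has a direction that held on both arrays.

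**Figure D2:**
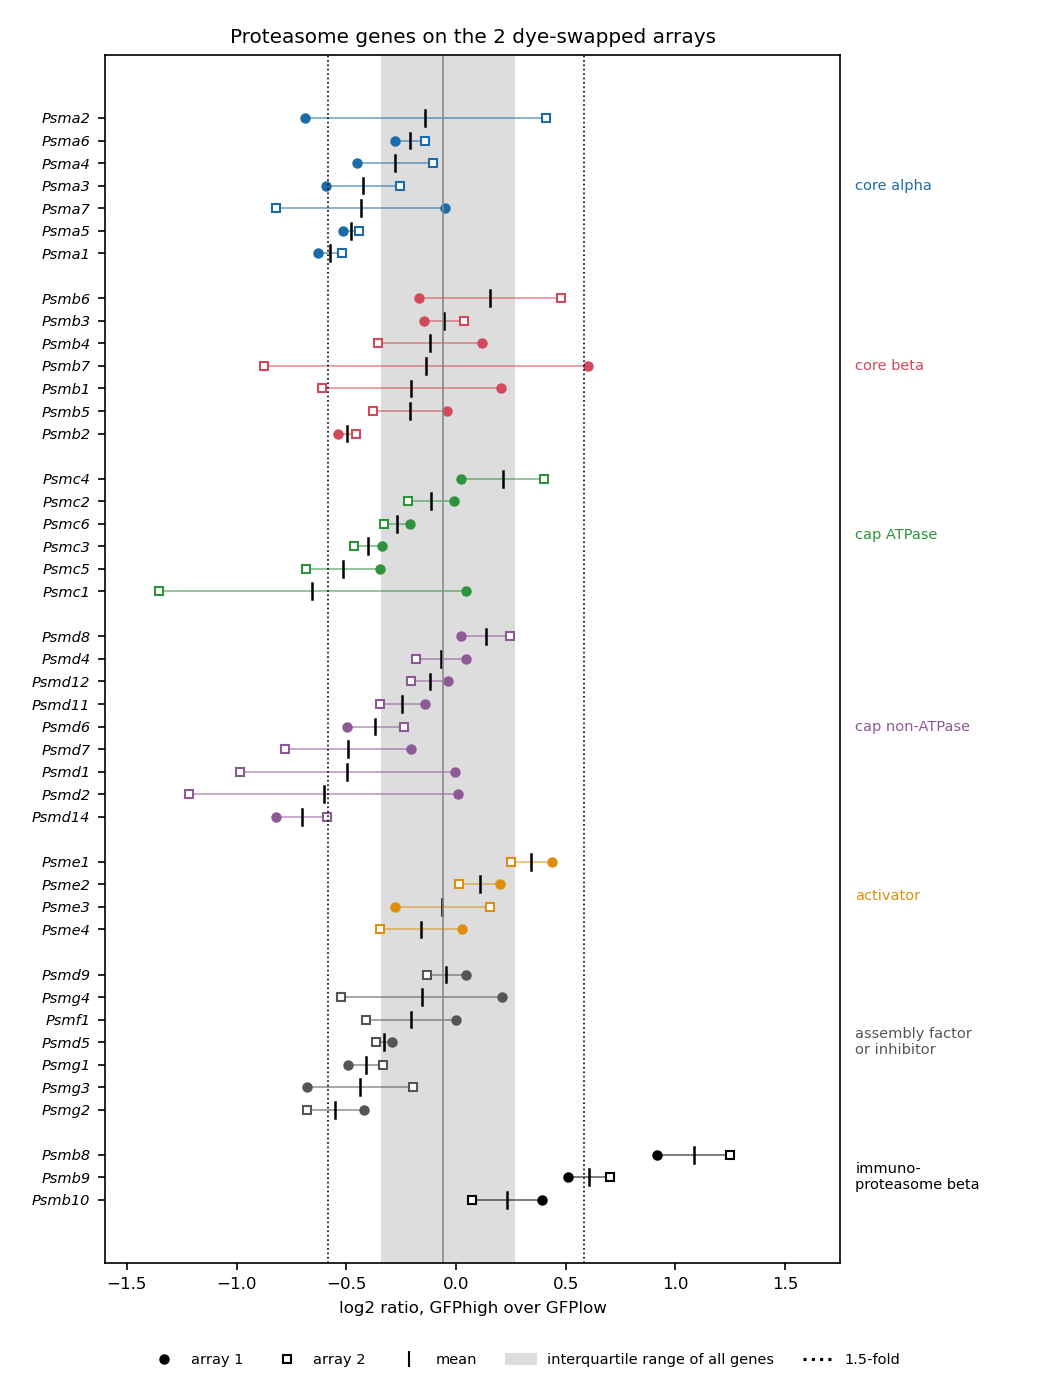
Log2 ratio GFPhigh over GFPlow of the 40 measured constitutive proteasome genes and the 3 immunoproteasome subunits, by class, on array 1 (filled circles) and array 2 (open squares), with the mean as a black bar. The grey band is the interquartile range of all genes (-0.34 to 0.26) and dotted lines mark 1.5-fold; Psmd14 is the only constitutive member beyond the same dotted line on both arrays, and Psmb7 is beyond opposite lines.

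The inducible counterparts had mean ratios above 0 after loess. Psmb8, which replaces Psmb5, had intensities of 8.12 and 8.07 in GFPhigh cells and 7.21 and 6.82 in GFPlow cells. Both GFPhigh values lay above both GFPlow values, and its ratios of 0.92 and 1.25 (mean 1.08 ± 0.24, 2.12-fold higher in GFPhigh cells) passed 1.5-fold on both arrays. The second Psmb8 probe had ratios of 1.21 and 0.46, and the value on array 2 is under 1.5-fold. On array 1 the signal of this second probe in GFPlow cells was not well above background. Psmb9, which replaces Psmb6, had intensities of 8.96 and 8.98 in GFPhigh cells and 8.45 and 8.28 in GFPlow cells. The ratios of Psmb9 were 0.51 and 0.70 (mean 0.61 ± 0.14), and only that on array 2 passed 1.5-fold. Psmb10, which replaces Psmb7, had ratios of 0.39 and 0.07 (mean 0.23 ± 0.22). The mean of Psmb8 was above 0 under every alternative, but ran from 0.30 with spike-in centring, under 1.5-fold, to 1.94 with processed signals. That of Psmb9 was -0.17 with spike-in centring, and that of Psmb10 was -0.58 with median centring and -0.55 with spike-in centring. Relative to all genes, Psmb9 was higher in all 13 settings (the analysis given here and its 12 alternatives).

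Set against the subunit it replaces within each array, Psmb8 had a ratio larger than Psmb5 by 0.96 and 1.63 (mean 1.30 ± 0.47, 2.45-fold). For Psmb9 over Psmb6 the difference was 0.68 and 0.23 (mean 0.45 ± 0.32). For Psmb10 over Psmb7 it was -0.21 and 0.95 (mean 0.37 ± 0.82), so that this pair had no direction that held on both arrays. Across the analysis as given and its 12 alternatives, the difference of the Psmb8 pair ran between 0.96 and 2.13 and that of the Psmb9 pair between 0.23 and 0.83. The Psmb10 pair ran between -0.21 and 0.95.

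Immune cells are rich in immunoproteasome, so their markers are given beside these values. Of 8 leukocyte genes, 7 were not well above background on both arrays in the brighter population: Ptprc, the pan-leukocyte surface protein, the T-cell gene Cd3e, the B-cell gene Cd79a, and the myeloid genes Lyz2, Adgre1, Itgam and Csf1r. The measured one, Fcer1g, had a summed intensity of 133.1 and 117.8 in GFPhigh cells and 171.3 and 108.0 in GFPlow cells, with ratios of -0.36 and 0.13. The part of leukocytes in the Psmb8 ratio was not tested beyond these values.

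**Figure D3:**
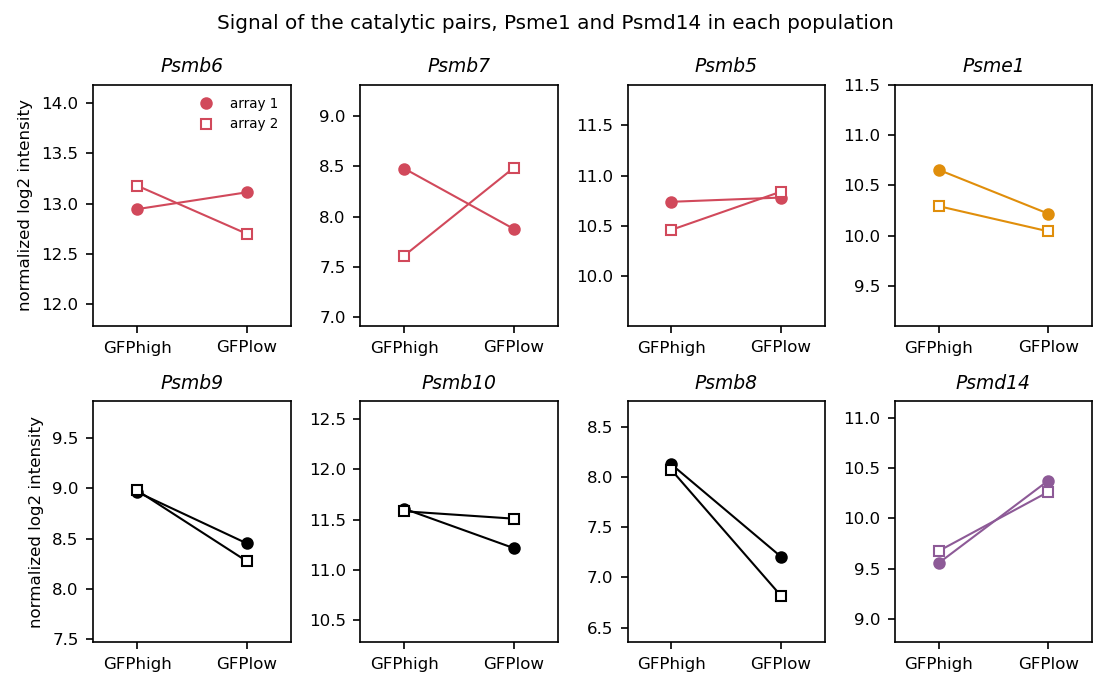
Normalized log2 intensity in GFPhigh cells (left in each panel) and GFPlow cells (right) on array 1 (filled circles) and array 2 (open squares) for the constitutive subunits Psmb6, Psmb7 and Psmb5 (top) above their inducible counterparts Psmb9, Psmb10 and Psmb8, and for Psme1 and Psmd14. GFPhigh lies above GFPlow on both arrays for Psmb8, Psmb9, Psmb10 and Psme1 and below it for Psmd14, while the lines of Psmb6 and Psmb7 cross; panels span the same range but differ in their offset, and probes are not compared in level.

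Of the cap ATPases, 6 of 6 were measured, with a median of -0.33, or -0.28 relative to all genes, and none passed 1.5-fold on both arrays. Psmc1 had the lowest mean and the widest spread. Its intensity was 9.75 and 8.94 in GFPhigh cells and 9.71 and 10.30 in GFPlow cells, so that array 1 gave 0.05 and array 2 gave -1.36 (mean -0.65 ± 0.99). Psmc5 had -0.35 and -0.68 (mean -0.52 ± 0.24), and Psmc3 had -0.34 and -0.46 (mean -0.40 ± 0.09). These genes, with Psmc6 at -0.21 and -0.33 and Psmc2 at -0.01 and -0.22, were below 0 on both arrays. Psmc4 was on the other side with 0.02 and 0.40 (mean 0.21 ± 0.27). Its second probe had a mean of -0.26, and Psmc4 was the only one of the 9 members with several kept probes whose probes differed in sign.

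The non-ATPase cap subunits had a median of -0.37, or -0.31 relative to all genes, for 9 measured genes. Each array alone gave a smaller value relative to all genes, -0.15 on array 2 and -0.080 on array 1. Psmd14, the metalloprotease that cuts ubiquitin chains off substrates as they enter the proteasome, fell in GFPhigh cells. Its intensity was 9.55 and 9.67 in GFPhigh cells and 10.37 and 10.26 in GFPlow cells, and the populations did not overlap. The ratios of Psmd14 were -0.82 and -0.59 (mean -0.70 ± 0.16), a 1.63-fold lower level in GFPhigh cells. The smaller of these ratios is just past the threshold of 1.5-fold (0.58 on the log2 scale), and the next member, Psma1, with -0.52 as its smaller ratio, is just short of it. The second Psmd14 probe had -0.94 and -0.19 (mean -0.57 ± 0.52) and did not pass on array 2, and with the probes of a gene averaged, or with median centring, 0 members passed.

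Psmd2, one of the scaffold subunits at the base of the cap, had 0.01 and -1.22 (mean -0.60 ± 0.87), and Psmd1, the other scaffold, had -0.01 and -0.99 (mean -0.50 ± 0.69). Both resembled Psmc1 in that array 2 alone carried the difference. Psmd1 was well above background in GFPhigh cells on 1 array only. Psmd8 was the highest at 0.02 and 0.25 (mean 0.13 ± 0.16), followed by the ubiquitin receptor Psmd4 at 0.05 and -0.18 (mean -0.07 ± 0.16) and Psmd12 at -0.04 and -0.20 (mean -0.12 ± 0.12). The lid subunits Psmd7, Psmd6 and Psmd11 had means between -0.49 and -0.24, all below 0 on both arrays. Psmd3 and Psmd13 were not measured, Psmd3 because its spot on array 2 was marked as faulty.

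The activators were the class with the highest median, 0.02, or 0.08 relative to all genes, for 4 of 4 genes. Psme1 had the highest mean of all measured constitutive members. Psme1 and Psme2 encode the chains of the interferon-inducible activator. Intensities of Psme1 were 10.65 and 10.29 in GFPhigh cells and 10.22 and 10.04 in GFPlow cells, and both GFPhigh values lay above both GFPlow values. Its ratios of 0.44 and 0.25 (mean 0.34 ± 0.13, 1.27-fold higher in GFPhigh cells) did not pass 1.5-fold. Psme1 was above the median of all genes in all 13 settings, by 0.14 to 0.49, although its ratio was below 0 under median centring (-0.35) and spike-in centring (-0.44).

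Psme2 had intensities of 11.82 and 11.62 in GFPhigh cells and 11.62 and 11.61 in GFPlow cells, with ratios of 0.20 and 0.02 (mean 0.11 ± 0.13). Psme3, the nuclear activator, had -0.28 and 0.15 (mean -0.06 ± 0.31), and Psme4, which acts on acetylated proteins, had 0.03 and -0.35 (mean -0.16 ± 0.26). The activators remained the highest of the 6 classes under all 12 alternatives. Their median lay below that of all genes under 2 of these, median centring and the filter for both populations.

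Of the assembly factors and the inhibitor, 7 of 8 were measured, with a median of -0.33, or -0.27 relative to all genes. The core chaperones Psmg2, Psmg3 and Psmg1 had the lowest means. Psmg2 had -0.42 and -0.68 (mean -0.55 ± 0.18), Psmg3 had -0.68 and -0.20 (mean -0.44 ± 0.34) and Psmg1 had -0.49 and -0.33 (mean -0.41 ± 0.11). All 3 were below 0 on both arrays and none passed 1.5-fold on both. Psmg4, the partner of Psmg3, had opposite signs on the arrays, with 0.21 and -0.52 (mean -0.16 ± 0.52).

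The cap chaperone Psmd5 had a mean of -0.33 and Psmd9, another cap chaperone, had 0.04 and -0.13 (mean -0.04 ± 0.12). Psmf1, an inhibitor of the core in the test tube, had -0.0019 and -0.41 (mean -0.21 ± 0.29). Psmd10 was not measured. In this class 3 of the 7 genes were well above background in GFPhigh cells on both arrays, and Psmg1, Psmg4, Psmd9 and Psmf1 were on 1 array. A gene dim in GFPhigh cells could enter only through its signal in GFPlow cells, so the class counts describe the genes that passed and support no direction. Over the 34 members bright enough in GFPhigh as well as GFPlow cells on each array, the median was -0.23 as well.

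Of the genes that work beside the proteasome, 2 partners and 1 gene of ubiquitin supply passed 1.5-fold. Of 19 partners, 14 were measured, with a median of -0.13 (-0.07 relative to all genes). Ratios were below 0 on both arrays for 5 of the 14 (35.7%), against 36.6% of all genes. At least 1.5-fold lower in GFPhigh cells were 2 of the 14, against 7.5% of all genes. These were Uchl5, a deubiquitinase docked on the cap, with -0.87 and -0.91 (mean -0.89 ± 0.02), and Nfe2l2, the transcription factor, with -0.88 and -0.70 (mean -0.79 ± 0.13). Nfe2l1, the other transcription factor introduced above, had opposite signs on the arrays, 0.60 and -0.43 (mean 0.08 ± 0.72). The shuttle factor Ubqln1 (mean -0.58 ± 0.58) and the cap-bound thioredoxin Txnl1 (mean -0.39 ± 0.35) did not pass. Of 19 genes of ubiquitin supply and of the unfoldase Vcp with its cofactors, 16 were measured. Their median was -0.11 (-0.05 relative to all genes), and 4 (25%) were below 0 on both arrays, against 36.6% of all genes. At least 1.5-fold higher in GFPhigh cells was 1 of the 16, against 5.59% of all genes. This was the polyubiquitin gene Ubb, with 0.74 and 0.79 (mean 0.77 ± 0.04). Spike-in centring lowers every ratio by 0.78, about as much as this mean. The ubiquitin-conjugating enzymes Ube2k (mean -0.46 ± 0.29) and Ube2r2 (mean -0.35 ± 0.79) and the Vcp cofactor Faf1 (mean -0.36 ± 0.10) did not pass.

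Another large protein machine, the CCT chaperonin that folds actin and tubulin, differed more between the populations. The proteasome members had a median of -0.23 and the CCT genes one of -0.94, over 7 measured of 8. Ratios were below 0 on both arrays for 7 of 7, against 36.6% of all genes. At least 1.5-fold lower in GFPhigh cells were 5 of the 7, against 7.5% of all genes. Tcp1 had -1.23 and -0.92, Cct5 had -1.09 and -1.02, Cct3 had -0.83 and -1.12 and Cct8 had -1.27 and -0.61. The lowest mean among the proteasome members, that of Psmd14, was -0.70, and the highest mean among the CCT genes was also -0.70. Relative to all genes, the CCT median ran between -1.15 and -0.79 over the 13 settings.

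**Figure D4:**
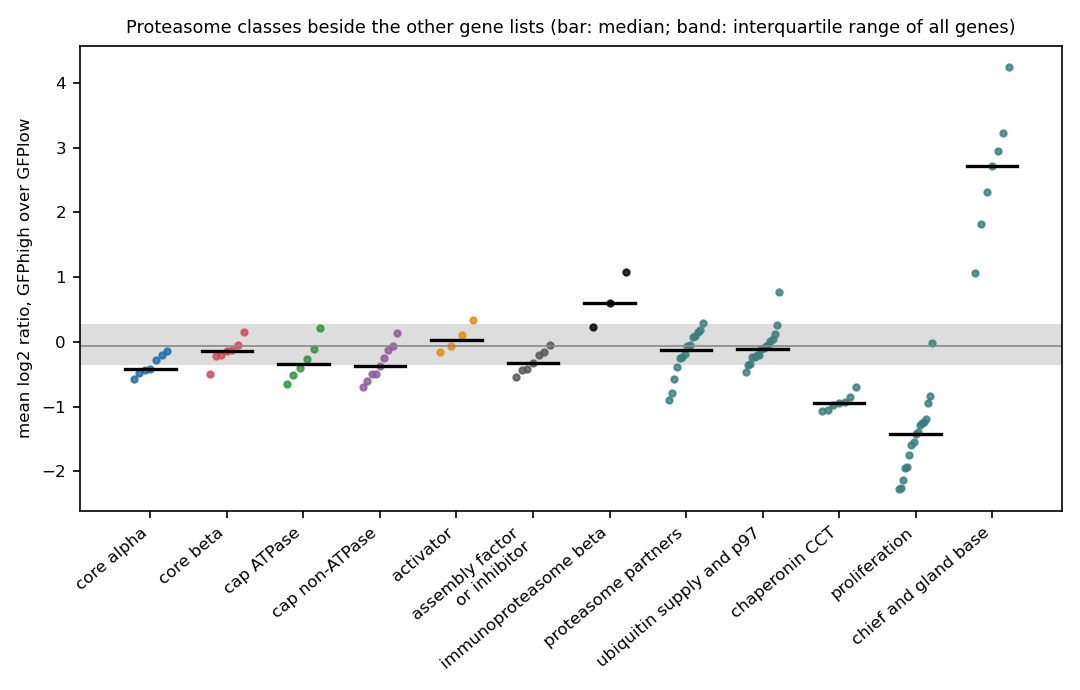
Mean log2 ratio GFPhigh over GFPlow of the measured genes of each proteasome class and of other gene lists, each point a gene, with the list median as a bar. The medians of core alpha (-0.42) and cap non-ATPase (-0.37) lie just below the grey interquartile band of all genes (-0.34 to 0.26). Those of the other constitutive classes lie within the band, up to 0.02. The CCT chaperonin (-0.94), proliferation (-1.43) and chief and gland base (2.72) lists lie farther from it.

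Markers of cell state and cell type differed far more between the populations than the proteasome did. Of 18 proliferation genes, 17 were measured, with a median of -1.43. At least 1.5-fold lower in GFPhigh cells were 16 of the 17, against 7.5% of all genes. The lowest were Mki67 (mean -2.28 ± 0.20), Birc5 (-2.26 ± 0.10), Cenpe (-2.13 ± 0.37) and Uhrf1 (-1.94 ± 0.04, well above background in GFPhigh cells on 1 array only). In GFPhigh cells 11 of the 17 measured genes were well above background on both arrays, and the others entered through GFPlow cells. The summed intensity of the list was 9822 and 10819 in GFPhigh cells and 28990 and 30594 in GFPlow cells. Top2a and Cdk1 were not well above background in GFPhigh cells on either array, and were at least 1.76-fold and at least 2.42-fold lower there, the GFPlow mean set against the higher of the GFPhigh signal and the lowest signal well above background.

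The surface mucous list had 4 of 4 genes at least 1.5-fold lower in GFPhigh cells, against 7.5% of all genes. The median was -2.77, led by Gkn2 (mean -3.24 ± 0.55), Tff1 (-3.20 ± 1.12) and Muc5ac (-2.33 ± 0.37). Gkn1 was not well above background in GFPhigh cells and was at least 3.07-fold lower there. Summed intensity of this list was 17654 and 26264 in GFPhigh cells and 252548 and 156533 in GFPlow cells. Of 6 enteroendocrine genes, 5 were measured and 4 were at least 1.5-fold lower, against 7.5% of all genes. The median was -1.68, led by Chgb (mean -2.90 ± 0.51), Ghrl (-2.82 ± 0.71), Sst (-1.68 ± 0.03) and Chga (-1.46 ± 0.15). The summed intensity was 2833 and 3609 in GFPhigh cells and 17641 and 16248 in GFPlow cells.

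Chief and gland base genes were at least 1.5-fold higher in GFPhigh cells in 7 of 7 cases, against 5.59% of all genes. Their median was 2.72, led by Cblif (mean 4.25 ± 0.82), Pgc (3.22 ± 0.69), Gkn3 (2.96 ± 1.51) and Aqp5 (2.72 ± 0.92). Their summed intensity was 714719 and 1268440 in GFPhigh cells and 222882 and 112638 in GFPlow cells. Of 10 genes of stroma and vessels, 2 were measured, Acta2 (mean -0.55 ± 0.16) and Col1a2 (0.60 ± 0.75), with a summed intensity of 658.0 and 734.8 in GFPhigh cells and 795.1 and 707.7 in GFPlow cells. The part of these cell types and of proliferation in the proteasome ratios was not tested.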

How the data were processed

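The authors deposited scanner output of 2 Agilent two-colour arrays, with spot and local background intensity per dye, per the file headers (Feature Extraction 10.5.1.1, build mm9; version 9.5.3 per the submitters' processing notes). The deposited log10 ratio is of processed Cy5 over Cy3. A deposited value table matched the scanner log10 ratios once GFPhigh was put over GFPlow. Depth does not apply; the number of arrays limits the precision.

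Background was corrected by normexp on mean signals (limma 3.58.1, R 4.3.3; the offset of 50 pulls dim ratios towards 0), followed by loess within arrays, with control spots at weight 0 and spots flagged as faulty left out. Levels are loess and Aquantile values per channel. Summed intensities are sums of these on the linear scale. Probes whose brighter population cleared background on each array stayed in (9499 of 41174), and the brightest such probe stood for its gene. Of 73 member probes, 49 were kept, 14 were above background in no channel, 9 in some channels and 1 was left out as flagged. Symbols came from RefSeq (GRCm38.p6, names only). Slide and scan were the same for both arrays and gave no batch to test.

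Member genes with a kept probe were named, with values per array for the 3 highest and 3 lowest of each class, all of classes of up to 6 and those past 1.5-fold, and up to 4 genes of every other list with the largest mean ratio. Nfe2l1 was named in addition, beside Nfe2l2. A further leukocyte marker, beside those named, is not reported here. Members and lists were chosen with earlier results of these data known. The procedure was tested on simulated data. Alternatives covered background correction, centring, filters, the probe rule, flagged spots, the value table and each array alone.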

Additional observations from a re-analysis of the deposited data

How the results depend on the processing

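Relative to all genes, the members' median of -0.17 moved by more than the spread between arrays only under median centring (-0.45), and with 1 array left out ran from -0.20 to -0.15. Without that adjustment it was -0.95 (median centring), -0.99 (spike-ins) and -0.35 to -0.11 with 1 array left out. Under median centring the core beta and cap ATPase medians relative to all genes were -0.45 and -0.50. The activator median turned its direction to -0.055 under median centring and -0.018 with both populations above background. It was 0.047 without background correction, 0.048 with processed signals and in the value table, 0.052 with spike-in centring, 0.015 with no filter and 0.11 with probes averaged. The assembly median was -0.22 without background correction, -0.30 with offset 16 or spike-in centring, -0.42 with processed signals and in the value table, -0.22 with median centring and -0.48 with both populations above background. Leaving out 1 array gave -0.56 to -0.11 for core alpha, -0.23 to -0.09 for core beta, -0.25 to -0.15 for cap ATPases, -0.15 to -0.080 for non-ATPases, 0.069 to 0.23 for activators and -0.34 to -0.24 for assembly factors.

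Members at least 1.5-fold lower in GFPhigh cells numbered 2 of 40 with offset 16 (Psmb2 added), against 715 of 7851 genes. With processed signals and in the value table they numbered 3 of 41 (Psmb2 and Psmg1 added), against 1100 of 7851 genes. They numbered 0 with median centring (598 of 8210 genes) or probes averaged (568 of 7830 genes). With spike-in centring they numbered 32 of 41, against 4215 of 8199 genes. On array 1 alone they numbered 5 of 42 (1102 of 9450 genes) and on array 2 alone 10 of 42 (1571 of 9123 genes). At 2-fold they numbered 11 with spike-in centring and 0 to 2 on single arrays, for which the share of all genes is not given. On single arrays 0 to 1 were at least 1.5-fold higher, against 1133 of 9450 genes on array 1 and 1132 of 9123 on array 2. Members below 0 on both arrays numbered 15 of 41 with median centring, against 32.1% of all genes. With spike-in centring they numbered 41 of 41, against 87.9% of all genes. Those below 0 on array 1 alone numbered 28 of 42 (45.9% of all genes) and on array 2 alone 34 of 42 (62.7%). The Lgr5 ratio was 1.89 without background correction, 2.55 with offset 16, 3.17 with processed signals and in the value table, 1.80 with median centring and 1.502 with spike-in centring. Of 510 single-gene values under alternatives, 412 moved by less than the spread between arrays and 98 by more. For a given probe, the ratio on 1 array always lies within 1 SD of the mean of the 2 arrays. Changes of filter left most single values as they were, and the value table repeated the processed signals. The 412 therefore include values that could not move, and the count does not measure how stable the genes were. Causes of these shifts were not tested. No paired analysis was possible because there is 1 RNA sample per population; each ratio already sets both populations side by side within an array.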
